A study of Mus musculus with 14 samples.

Results

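Processed pseudogenes are copies of messenger RNAs that were reverse transcribed and inserted into the genome. They usually lack introns and a promoter of their own, and most are not thought to encode protein. Genes with abundant messenger RNA in the germ line, those of ribosomal proteins above all, have left many such copies, and recent copies still share long stretches of sequence with the parent gene they came from. A short read from a shared stretch fits both places, so a level listed for such a pseudogene can hold reads of its parent gene.

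The genes described here were the rows annotated by the authors as processed pseudogene and chosen by their mean level, at least 1 FPKM over 14 libraries. FPKM is a fragment count divided by transcript length and by the size of the library. They numbered 464 of 744 processed pseudogenes, in a table of 14531 rows, and the other 280 had a mean under 1 FPKM. All libraries stem from hypothalami of male C57BL/6N mice, 10 weeks old, that ate control diet or, over 3 days, high-fat diet. The labels name no transgene and no other treatment in any group. Hypothalami were pooled by 8, and the labels give 4 precipitations per condition. Input libraries hold RNA of the whole lysate, and IP libraries hold RNA precipitated in the phosphoribotrap procedure, in which ribosomes carrying the phosphorylated ribosomal protein S6, a mark of activated cells, are captured with an antibody. The control diet has 3 libraries of each fraction and the high-fat diet has 4. A precipitation with a control antibody was not analysed here, the number of reads is unknown, and p-values measure only the spread between these libraries.

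The mean FPKM chose these pseudogenes, so their level is a description. It ran from 1.00 to 596 with a median of 3.62 and quartiles of 1.87 and 9.28, and 107 pseudogenes reached 10 FPKM while 132 stayed under 2 FPKM. Just above the threshold were Gm12577 at 1.02, Gm6368 at 1.01 and Gm8730 at 1.00 FPKM. Just below it were Gm12696 at 0.998, H3f3a-ps2 at 0.990 and Tsg101-ps at 0.989 FPKM. The mean was taken over both fractions, so 89 pseudogenes with an input mean under 1 FPKM passed through their IP libraries alone and 22 with an IP mean under 1 FPKM passed through input alone, while 353 were at 1 FPKM or more in both. Those passing through 1 fraction were bound to be high in it, and their changes are descriptions. Among the pseudogenes named below these are Eif1-ps1, Gm9104, Gm43028, Rpl21-ps15 and Gm14648 (IP) and Gm17875, Gm18325, Gm11407, Gm30738 and Gm3200 (input). In 115 of the 464 at least 1 library was listed at 0, in at most 4 libraries each.

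The pseudogenes closely resembled their parents. A parent gene was found for 462, from the symbol for 102 (Rpl21-ps11 names Rpl21) and from the best match among protein-coding transcripts of GENCODE M21 for 360, and Gm18609 and Gm18325 had none. The match was identical over the aligned part in 53, reached 98% identity in 311, stayed under 90% in 18 and had a median of 98.9%. It spanned at least 95% of the pseudogene in 449, and 450 had a single exon, with a median length of 553 bases. The 462 came from 345 parents, of which 276 had 1 pseudogene in the set and 69 had 2 or more, and 139 pseudogenes came from 63 genes of cytosolic ribosomal proteins. To express what a short read can tell apart, each pseudogene was cut into all its words of 50 bases. In the median pseudogene 61.2% of these words were also in the parent and 70.1% in some other gene. No word of their own was left to 65 pseudogenes, while 6 shared none. Words were counted on either strand, and genes lying over the pseudogene's own position were included among the other genes. Outside other genes lay 287, while 66 were in an intron of a gene on the same strand, 81 in an intron on the opposite strand, and 6 and 24 over an exon on the same and the opposite strand.

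Summed over the 464, pseudogenes took 0.536% to 0.624% of a library's FPKM in the 7 input libraries and 1.80% to 2.33% in the 7 IP libraries. The ranges did not overlap. Mitochondrially encoded genes took 23.5% to 39.1% of FPKM in input and 2.66% to 15.6% in IP, and over the nuclear genes alone the share of the pseudogenes was 0.793% to 0.881% in input and 1.93% to 2.67% in IP. The 10 with the highest mean held 29.5% of the pseudogenes' summed FPKM, and those with a ribosomal protein parent held 38.6%. Within the pseudogenes' own FPKM, the ribosomal share was 19.1% to 22.4% in input and 34.6% to 49.4% in IP.

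Gm12338, a copy of Cox7c, had the highest level. Cox7c encodes a small subunit of cytochrome c oxidase, the last complex of the respiratory chain. Gm12338 lies at chr11:75599763-75599954 on the minus strand (GRCm38), in an intron of Pitpna, which is on the opposite strand. Its 192 annotated bases are the whole coding sequence of Cox7c without a change, printed here because no read inside them can be assigned by sequence. Both are from GENCODE M21, 5′ to 3′, with no capitals since no base differs.
Cox7c: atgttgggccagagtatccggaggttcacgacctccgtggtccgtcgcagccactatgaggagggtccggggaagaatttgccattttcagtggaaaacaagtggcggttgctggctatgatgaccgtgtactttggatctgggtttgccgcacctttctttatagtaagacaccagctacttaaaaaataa
Gm12338: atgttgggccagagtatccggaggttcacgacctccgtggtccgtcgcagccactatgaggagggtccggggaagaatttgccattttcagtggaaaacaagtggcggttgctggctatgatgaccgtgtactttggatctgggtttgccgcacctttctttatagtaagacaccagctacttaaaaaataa

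Input held 83.4, 91.1 and 87.0 FPKM of Gm12338 on control diet and 101, 109.5, 77.4 and 99.4 FPKM on high-fat diet. IP held 1074, 1184 and 755 FPKM on control diet and 1209.9, 1223, 1038 and 1212 FPKM on high-fat diet. Every IP library was above every input library. Over both diets the log2 change of IP over input was 3.54 ± 0.12 (SE, adjusted p = 4.0e-11, limma, higher in IP), and that of Cox7c was 3.44. The mean level was 596 FPKM for Gm12338 and 538 FPKM for Cox7c.

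Of the 10 highest, 8 others described here also stood higher in every IP library than in any input library. Gm10443, identical to Rps28, a protein of the small ribosomal subunit, over its 210 bases, held 4.26, 14.8 and 24.9 FPKM in input (lowest, median and highest library) and 207, 292 and 576 FPKM in IP. Gm14539, identical to Usmg5, a small subunit of ATP synthase, held 14.7, 23.5 and 28.4 FPKM in input and 150.2, 235 and 355 FPKM in IP. Rpl38-ps2, identical to Rpl38, held 8.36, 14.3 and 28.7 FPKM in input and 94.7, 192 and 432 FPKM in IP. The log2 changes were 4.65, 3.39 and 3.77, beside 4.15, 3.71 and 3.88 in the parents. Gm9794 (Rpl23), Rpl21-ps8 (Rpl21) and Tpt1-ps3 (Tpt1, translationally controlled tumour protein) changed by 2.78 to 3.52, and Gm14681 (Npm1, nucleophosmin, a nucleolar protein) and Gm15920 (Ndufa12, complex I) by 1.56 and 1.57. The plot of levels by library shows this gap for these 9, while the diets overlapped within IP for each of them. In input they overlapped for 8, and for Rpl38-ps2 the control diet held 8.36 to 12.1 FPKM and the high-fat diet 14.3 to 28.7 FPKM.

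**Figure D1:**
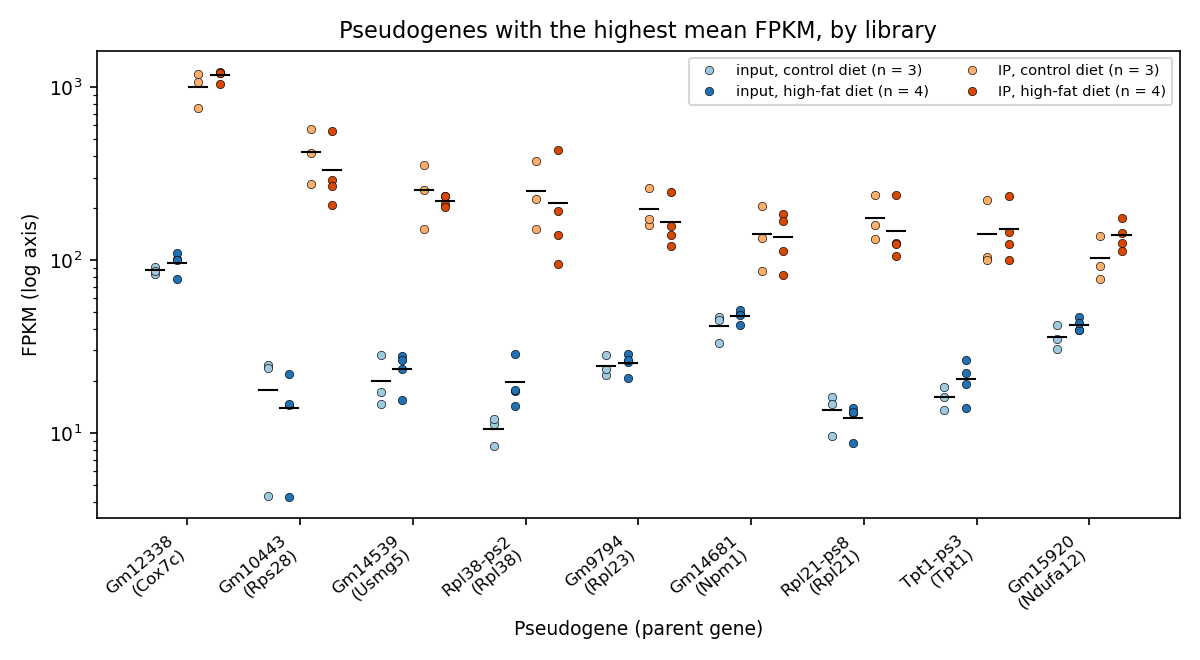
FPKM (log axis) of 9 of the 10 pseudogenes with the highest mean, with the parent gene in brackets. Points are single libraries, coloured by fraction and diet, and short lines are group means. In each of the 9 all 7 IP libraries lie above all 7 input libraries, as for Gm12338 with 77.4 to 109.5 FPKM in input and 755 to 1223 FPKM in IP.

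Over both diets 256 pseudogenes were higher and 29 lower in IP than in input at an adjusted p under 0.05, on the log2(FPKM + 1) scale. Of all 12478 genes tested, 23.4% were higher and 20.5% lower. The median log2 change was 0.91 for the pseudogenes and 0.00 for all genes. In 181 pseudogenes (14.6% of all genes) every IP library was above every input library of its own diet, for both diets. In 10 (10.2%) every IP library was below them in the same way. The choice by mean level favours pseudogenes that are high in 1 fraction, so these counts describe the 464 and do not extend to all processed pseudogenes. Among the 353 with at least 1 FPKM in both fractions, 190 were higher, 18 were lower and the median was 0.88. When all 744 were fitted without a filter, the median was 0.31, with 280 higher and 57 lower, and the 280 under 1 FPKM had a median of 0.03, with 25 higher and 28 lower.

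Other properties of the libraries moved with the same comparison, and their part in the pseudogenes' change was not tested. Mean levels, as log2(FPKM + 1), of neuron markers were 7.72 to 8.05 in input and 8.55 to 9.18 in IP (4 of 4 tested were higher), and those of astrocytes were 6.17 to 6.43 and 4.45 to 5.54 (5 of 5 lower). Mature oligodendrocyte markers stood at 6.22 to 6.51 and 4.39 to 5.42 (4 of 5 lower), microglia at 2.08 to 2.30 and 1.47 to 2.84 (0 of 4 called), choroid plexus at 1.20 to 2.47 and 2.86 to 5.03 (4 of 5 higher) and blood cells at 1.56 to 2.49 and 4.00 to 6.76 (4 of 5 higher). Markers of the thalamus, which borders the hypothalamus, were at 5.81 to 6.04 and 7.69 to 8.49 (5 of 5 higher), while 5 tested peptide markers of the hypothalamus had input means of only 1.03 to 5.21 FPKM and were at 1.20 to 2.07 and 1.20 to 3.35 (2 of 5 higher). Fewer cells of a type and less RNA per cell cannot be told apart in these bulk samples. The share of rows listed at 0 was 9.57% and 10.9% in the IP libraries of index 0 against 0.771% to 5.18% in the other IP libraries. Without both, 262 pseudogenes were higher and 32 lower. Of all 12478 genes, 3686 were then higher and 3256 lower, against 2925 and 2553 with all libraries.

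Between 300 and 3000 bases medians were mostly larger in shorter genes, in both classes of gene. By the longest annotated transcript, the median log2 change of pseudogenes was 1.96 up to 300 bases (24 genes), 1.44 from there to 500 (188), 0.51 to 700 (96), 0.66 to 1000 (75), 0.13 to 1500 (59) and 0.07 to 3000 (21). For protein-coding genes it was 2.91 above 300 and up to 500 bases (22), 2.12 to 700 (102), 1.29 to 1000 (274), 0.85 to 1500 (650), 0.26 to 3000 (3000) and -0.26 above that (6901). In each range from 300 to 3000 bases the median of the pseudogenes was the lower of both. Up to 300 bases it was the higher, with 4 protein-coding genes at -1.97, and the single pseudogene above 3000 bases was at 1.34. Among other pseudogene classes the median was 0.39 in 42 transcribed processed pseudogenes and -0.95 in 19 unprocessed ones. The parts of length and of the scale, which understates changes of low genes, were not tested.

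Copies of cytosolic ribosomal protein genes, whose products build the ribosome, held 126 of the 256 higher pseudogenes. Of 139 such copies 126 were higher and 1 was lower, with a median of 1.95, while their tested parents had a median of 3.01. The change of the pseudogene was smaller than that of its parent in 118 of 134 pairs. The log2(FPKM + 1) scale understates changes of low genes. These copies had a median level of 5.46 FPKM, and the median ratio to the level of the parent was 0.047. The part of the scale in this gap was not tested. The 3 largest changes among all 464 were in this family: Gm19810 (Rps21) at 4.75, Gm10443 (Rps28) at 4.65 and Gm14303 (Rps29) at 4.06, followed by Rpl38-ps2 at 3.77 and Gm11518 (Rpl27) at 3.75. Gm4149 (Rpl37a), Gm4332 (Rps20) and Rps16-ps2 (Rps16) changed by 3.72, 3.70 and 3.57. Beside Gm13525, 12 were not called, among them Gm45380 (Rpl31) at 0.09 and Gm16288 (Rps25) at 0.20. These were chosen after their values were seen.

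Gm19810 is not a near-identical copy, unlike Gm10443, Gm14303, Rpl38-ps2 and Gm11518, which have 100% identity. It has 95.2% identity to Rps21, a protein of the small subunit, over its 251 bases, and 20.3% of its 50-base words are in Rps21. Input held 3.83, 0 and 3.61 FPKM on control diet and 0, 0, 1.07 and 0.922 FPKM on high-fat diet. IP held 113, 45.7 and 27.5 FPKM on control diet and 104, 47.3, 34.1 and 45.9 FPKM on high-fat diet. All IP libraries were above all input libraries, 3 of which were listed at 0, and the log2 change was 4.75 ± 0.42 (adjusted p = 3.0e-07, limma), beside 5.18 in Rps21, whose mean level was 534 FPKM against 30.5 FPKM for Gm19810. The lines show bases 6 to 65 of the coding sequence of Rps21 (chromosome 2, plus strand) and the aligned bases of Gm19810 (chr10:79888717-79888776, plus strand, GRCm38, from GENCODE M21), where capitals mark the 4 bases that differ, A30C, G37T, A53T and G60T, counted from the first base printed and with the base of Rps21 first. The window was the gapless one with most differences.
Rps21: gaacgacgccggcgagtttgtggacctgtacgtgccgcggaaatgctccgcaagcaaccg
Gm19810: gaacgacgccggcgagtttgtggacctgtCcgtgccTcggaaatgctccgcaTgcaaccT

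Smaller medians were seen in other families with products that are abundant in most cells. Oxidative phosphorylation genes of the nucleus had 17 copies, 14 higher and 0 lower (median 1.30), with Gm6969 (Cox7a2l) at 2.67, Gm10250 (Atp5h, ATP synthase) at 2.44 and Cox6c2 (Cox6c) at 2.22. Of 17 copies of translation factor genes 12 were higher and 1 was lower (median 1.24), with Eif1-ps1 at 2.77 and Gm10157 at 2.67, both from the initiation factor Eif1, and Gm13456 (Eef1a1, which brings aminoacyl-tRNA to the ribosome) at 1.96. The lower one was Gm30738, from the cap-binding factor Eif4e, at -1.25. Gm30738 passed the filter through input alone and Eif1-ps1 through IP alone, so their changes are descriptions. Of 15 copies of genes of chromatin proteins 11 were higher and 0 lower (median 1.34), with Gm8203 (histone variant H2afz) at 2.39 and all 5 copies of Npm1 at 0.91 to 1.72.

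Of 23 copies of proteasome and ubiquitin genes 11 were higher and 0 lower (median 0.58), among them Gm4596 and Gm15361 (Ube2d3, a ubiquitin-conjugating enzyme) at 1.25 and 1.09. Of 16 copies of spliceosome and RNA-binding protein genes 7 were higher and 1 was lower (median 0.43), with Gm13092 (Snrpf, a core protein of spliceosomal particles) at 2.40. Chaperones and peptidyl-prolyl isomerases had 4 higher and 1 lower of 14 (median 0.28), cytoskeleton 2 and 1 of 6 (0.50) and glycolysis 1 and 1 of 7 (0.30). Of all tested genes 23.4% were higher and 20.5% lower, so counts in families this small are not read as a result about the family. Gm6977, the copy of the ferritin gene Fth1, had a change of -0.38 that did not pass (-0.78 without both IP libraries of index 0, adjusted p = 0.0145, limma). In glycolysis, Pgam1-ps2 (Pgam1) was higher at 0.66 and Gm3200 (Gapdh) lower at -0.87. Neither call was firm, and Gm3200 passed the filter through input alone, so its change is a description. Gm3200 was at -0.32 (adjusted p = 0.405, limma) after quantile normalization and lost the call without input index 2 or IP index 1 on control diet (adjusted p = 0.0611 and 0.0507, limma). Pgam1-ps2 lost it with the index as a block (adjusted p = 0.0687, limma) and without input index 0 or 2 on control diet or input index 0 on high-fat diet (adjusted p of up to 0.0542, limma). Parents with symbols outside these families had 207 pseudogenes with 67 higher and 22 lower (median 0.36). These pseudogenes were led by Gm14539, Mpc1-ps (Mpc1, a mitochondrial pyruvate carrier subunit) at 3.34, Gm8566 (Sod1, superoxide dismutase) at 3.09 and Atp6v0c-ps2 (Atp6v0c, a proton pump subunit) at 3.01. Usmg5, the parent of Gm14539, encodes an ATP synthase subunit but fell outside the oxidative phosphorylation family by its symbol. Families were set by the symbol of the parent with earlier results of these data known, and the plot by family gives every pseudogene.

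**Figure D2:**
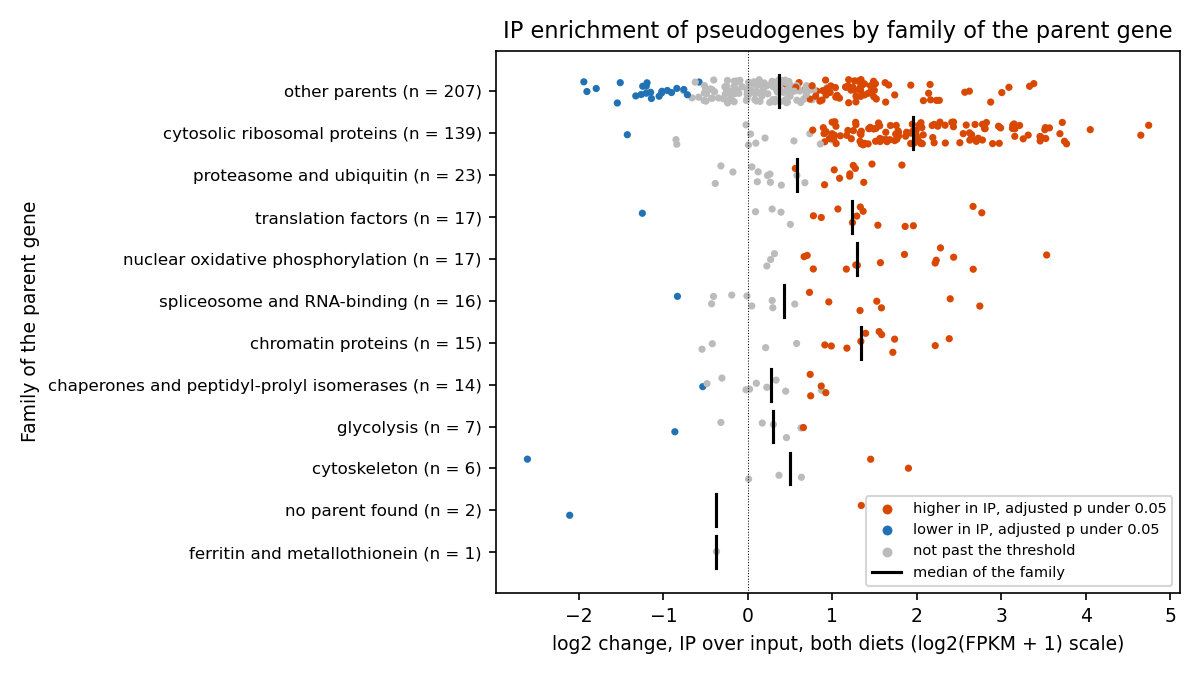
Log2 change of IP over input over both diets (log2(FPKM + 1) scale, x axis) for the 464 pseudogenes by family of the parent gene (y axis). Points are pseudogenes, orange if higher and blue if lower at an adjusted p under 0.05 and grey otherwise, with black lines at family medians. The 139 ribosomal copies centre on 1.95 and the 207 copies of other parents on 0.36.

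The change of a pseudogene was related to that of its parent, less so within the ribosomal family. Across the 428 pseudogenes with a tested parent, Pearson's r between both log2 changes was 0.75, given as a description since the genes share libraries and sequence. It was 0.30 over the 134 pairs with a ribosomal parent and 0.75 over the 294 others. Of 243 higher pseudogenes with a tested parent 233 had a parent that was higher, 0 had one that was lower and 10 had one that was not called. Of 20 lower pseudogenes 13 had a lower parent, 2 a higher one and 5 one that was not called. Where every 50-base word was in the parent (46 tested pairs) r was 0.90 and the median absolute difference in log2 change was 0.33. Where above 0% and up to 25% were (57 pairs) r was 0.60 and the difference 1.17, and with none (8 pairs) r was 0.20 and the difference 1.20. The scatter against the parents shows the widening. The median level was 10.7 FPKM in the class with every word in the parent and 2.21 FPKM in that above 0% and up to 25%. The log2(FPKM + 1) scale understates changes of low genes, and its part in the widening was not tested.

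**Figure D3:**
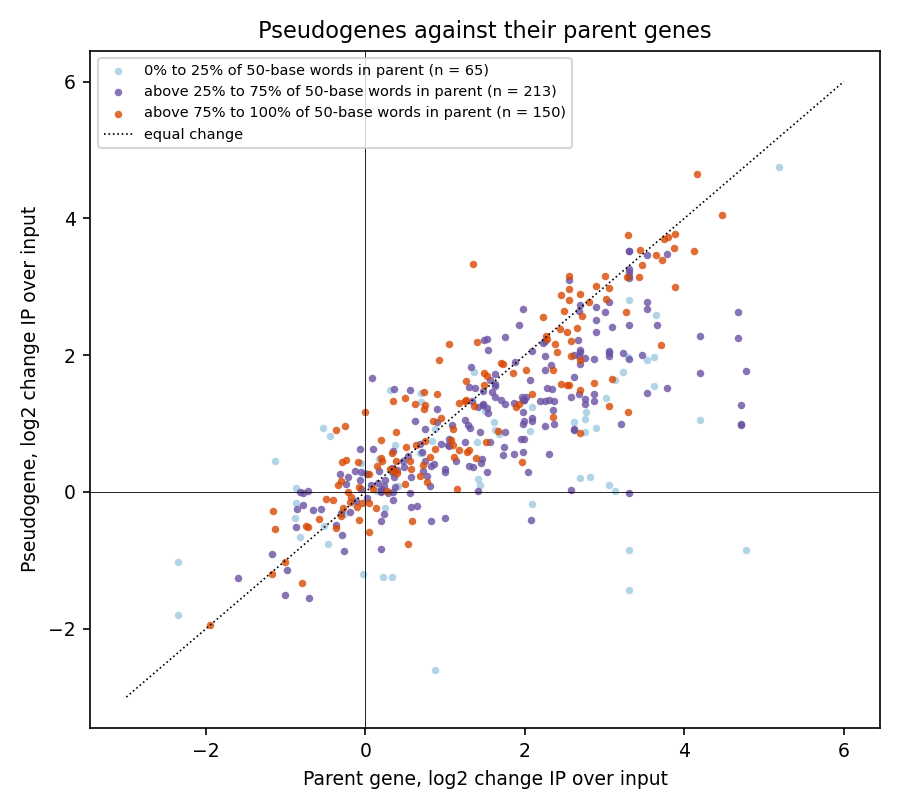
Log2 change of IP over input in each pseudogene (y axis) against that of its parent gene (x axis) for 428 pairs, coloured by the share of the pseudogene's 50-base words that the parent holds. The dotted line marks equal change. Pairs that share most words lie close to it, and pairs that share few lie mainly below it at high parent changes.

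Among ribosomal copies the medians had no steady order over the classes of shared words. The 16 whose words were all in the parent had a median change of 2.99 with 16 higher, and their parents 3.38. The 19 that shared above 0% and up to 25% had a median of 1.05 with 13 higher, and their parents 3.18. The classes between had medians of 1.99 (30 pseudogenes), 1.87 (39) and 2.20 (32). The 3 that shared none with the parent had 1.76, with 2 higher and 1 lower. Of these 3, Rpl36a-ps3 and Gm27038 shared 81.6% and 100% of their words with other genes. Gm27038 lies over an exon of 2700099C18Rik on the opposite strand. Words were counted on either strand, so its share can come from that same place. Rpl36a-ps3 was given its parent by its symbol, while its best match by sequence was Rpl36al. In copies of all other genes the median was 0.66 where all words were shared (33 pseudogenes, parents 0.89), 0.22 above 0% and up to 25% (45, parents 0.31) and -0.28 with none (8, of which 1 was higher and 3 were lower, parents 0.87). Level differed with the class, with a median of 20.7 FPKM in the 16 ribosomal copies and 2.64 FPKM in the 19. The scale understates changes of low genes. How much of a pseudogene's level came from RNA of its parent was not tested.

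The gene a pseudogene sits in gave a different picture. For 48 pseudogenes inside an intron of a tested gene on the same strand, r between the change of the pseudogene and that of the surrounding gene was -0.02, and for 60 on the opposite strand it was -0.04. With the parent it was 0.68 (45 pairs) and 0.67 (55 pairs). The change was closer to that of the parent than to that of the surrounding gene in 33 of 45 and in 42 of 55. Strand is not marked by the library kit, so reads from both strands of a place cannot be told apart.

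Rpl21, a protein of the large ribosomal subunit, had the most pseudogenes in the set, 12. They range from near-identical copies to a diverged one inside a neuronal motor gene, and the window shows how far. The first line is Rpl21 itself (chromosome 5, plus strand, bases 69 to 128 of its coding sequence of 483 bases), then 11 pseudogenes in order of mean level with the aligned bases, in their own sense, GRCm38, from GENCODE M21. Rpl21-ps8 is not shown. Capitals mark bases that differ from Rpl21, and the window was the gapless one with most differences.
Rpl21: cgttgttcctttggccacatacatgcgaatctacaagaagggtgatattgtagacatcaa
Gm12411: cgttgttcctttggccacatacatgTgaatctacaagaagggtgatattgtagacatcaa
Rpl21-ps11: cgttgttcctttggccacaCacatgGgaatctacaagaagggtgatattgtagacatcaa
Gm11703: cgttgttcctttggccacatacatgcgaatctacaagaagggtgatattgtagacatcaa
Gm42573: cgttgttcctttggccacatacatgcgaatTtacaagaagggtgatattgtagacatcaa
Gm9104: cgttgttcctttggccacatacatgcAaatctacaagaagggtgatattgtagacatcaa
Gm43028: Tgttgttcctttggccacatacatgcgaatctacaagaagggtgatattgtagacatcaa
Rpl21-ps15: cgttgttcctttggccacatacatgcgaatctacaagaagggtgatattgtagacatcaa
Gm13525: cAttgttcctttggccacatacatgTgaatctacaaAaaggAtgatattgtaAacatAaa
Gm14648: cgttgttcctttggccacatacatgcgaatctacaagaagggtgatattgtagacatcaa
Gm5857: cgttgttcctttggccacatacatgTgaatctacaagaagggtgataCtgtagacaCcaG
Gm3355: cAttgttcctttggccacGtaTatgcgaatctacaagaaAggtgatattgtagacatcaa

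Counted from the first base printed, Gm12411 has C26T, Rpl21-ps11 has T20C and C26G, Gm42573 has C31T, Gm9104 has G27A and Gm43028 has C1T, and Gm11703, Rpl21-ps15 and Gm14648 have no difference in the window. Gm13525 (chr2:49680562-49680621) has 6 differences, and Gm5857 (chr3:144427545-144427604) and Gm3355 (chr17:13862670-13862729) have 4 each. Among the 11 shown, the 3 with 4 or more differences were those not higher in IP. Of the others, Gm9104, Gm43028, Rpl21-ps15 and Gm14648 passed the filter through IP alone and were bound to be high in it. Identity over the whole pseudogene was 93.6% in Gm13525, 95.5% in Gm5857 and 97.5% in Gm3355, and 95.9% to 99.4% in the others, so Gm3355 was not among the most diverged by that measure. These were grouped after their values were seen, and no test was made.

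Gm12411, identical to Rpl21 at 99.2% of bases, held 15.7, 7.80 and 11.0 FPKM in control-diet input and 10.1, 6.87, 7.64 and 9.98 FPKM in high-fat input. IP held 179, 114 and 115 FPKM on control diet and 189, 81.9, 112 and 96.3 FPKM on high-fat diet. The fractions did not overlap, and the log2 change was 3.53 ± 0.21 (adjusted p = 5.0e-09, limma), near the 3.31 of Rpl21. Rpl21-ps8, Rpl21-ps11, Gm9104, Gm11703 and Gm43028 changed by 3.13 to 3.52, and Gm42573, Rpl21-ps15 and Gm14648 by 2.81, 2.44 and 1.95. These 9 were higher, with no overlap between fractions within either diet. Of them, Gm9104, Gm43028, Rpl21-ps15 and Gm14648 passed the filter through IP alone, so their changes are descriptions.

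Gm13525 lies in an intron of Kif5c, a kinesin motor of neurons, on the same strand, and shares 0% of its words with Rpl21. It held 2.45, 10.4 and 4.90 FPKM in control-diet input and 5.33, 4.89, 5.18 and 2.54 FPKM in high-fat input. IP held 5.89, 0 and 0.577 FPKM on control diet and 4.07, 2.47, 0 and 0 FPKM on high-fat diet. The fractions overlapped, with 3 IP libraries inside the range of input. The log2 change was -1.43 ± 0.49 (adjusted p = 0.0281, limma), and that of Kif5c was -0.66. The call did not hold without any 1 of 7 libraries (input index 1 or 2 on control diet, input index 0 on high-fat diet, IP index 1 or 2 on control diet, IP index 2 or 3 on high-fat diet), with an adjusted p of up to 0.0843 by limma. Gm5857 and Gm3355 had changes of -0.85 and -0.02 that did not pass, although Gm5857 passed without IP index 2 on high-fat diet at -1.12 (adjusted p = 0.00388, limma).

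**Figure D4:**
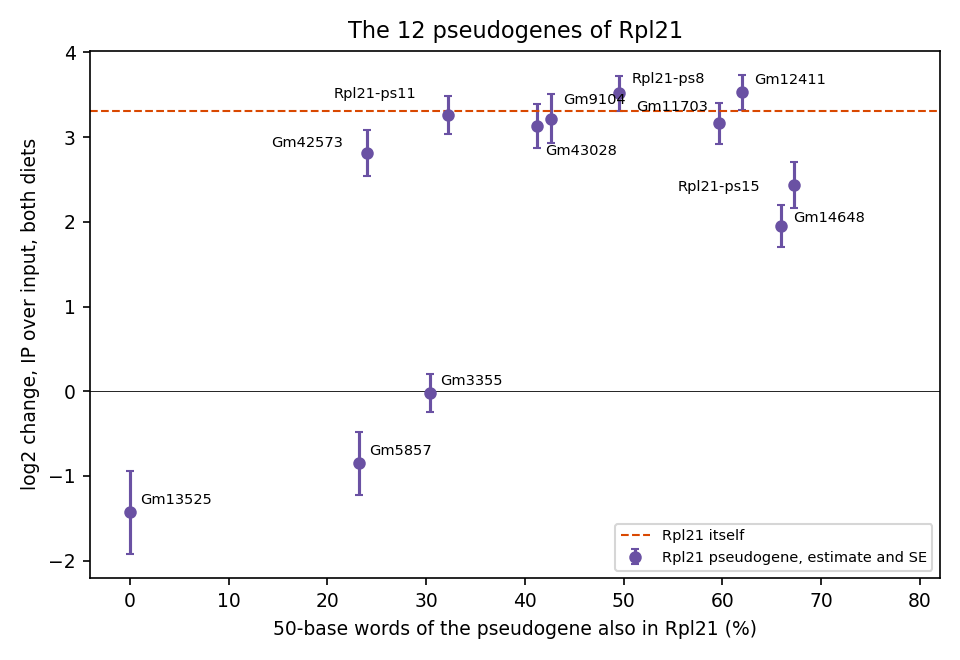
Log2 change of IP over input over both diets (y axis, estimate and SE) of the 12 pseudogenes of Rpl21 against the share of their 50-base words that Rpl21 holds (x axis, percent). The dashed line is Rpl21 at 3.31. Gm13525 at 0% lies at -1.43, and all 9 higher ones lie at 1.95 or more. Of these 9, Gm9104, Gm43028, Rpl21-ps15 and Gm14648 passed the filter through IP alone.

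In 15 pseudogenes the mean level was above that of the parent. Rpl17, a protein of the large subunit, was listed at 3.95 FPKM, while its copies Rpl17-ps10, Rpl17-ps3 and Rpl17-ps5 were at 26.8, 21.7 and 14.2 FPKM with 99.3% to 99.6% identity. Rpl17-ps10 held 2.60, 4.75 and 6.70 FPKM in input (lowest, median and highest) and 30.0, 43.5 and 74.3 FPKM in IP, with no overlap. Their log2 changes were 3.16, 2.80 and 2.97, beside 2.55 in Rpl17. Gm8430, a copy of Rps27a, was at 42.4 FPKM against 21.8 FPKM and Gm13092 at 31.5 against 14.6 FPKM for Snrpf. How reads of shared stretches were divided is not given in the sources used here.

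AC151284.2 was also above its closest coding gene, Map7, at 24.4 against 16.0 FPKM, with 82.7% identity and 0% of words shared with any gene. Input held 35.4, 23.2 and 20.0 FPKM on control diet and 19.1, 19.1, 18.6 and 27.0 FPKM on high-fat diet. IP held 2.06, 42.8 and 11.3 FPKM on control diet and 59.1, 40.9, 1.54 and 21.3 FPKM on high-fat diet. IP libraries lay on both sides of input, and the change of -0.66 ± 0.64 did not pass (adjusted p = 0.431, limma).

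Of the 29 that were lower in IP, 22 had a parent outside the families above. Gm17875 had the lowest estimate. Its closest coding gene is Actb, cytoplasmic actin, with 69.7% identity, and none of its 50-base words is in another gene. It held 5.84, 11.3 and 6.03 FPKM in control-diet input and 9.27, 10.3, 4.18 and 7.88 FPKM in high-fat input, against 0, 1.22 and 0.236 FPKM and 0, 0.416, 1.52 and 0 FPKM in IP. Every IP library was below every input library, 3 of them at 0, and the log2 change was -2.61 ± 0.31 (SE), while Actb was higher at 0.87. With an IP mean of 0.484 FPKM it passed the filter through input alone, so its change is a description. The lines show bases 83 to 142 of the coding sequence of Actb (chromosome 5, minus strand) and the aligned bases of Gm17875 (chr9:65364896-65364955, plus strand, GRCm38, GENCODE M21) with the 18 differing bases in capitals.
Actb: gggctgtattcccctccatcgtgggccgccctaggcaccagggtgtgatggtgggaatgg
Gm17875: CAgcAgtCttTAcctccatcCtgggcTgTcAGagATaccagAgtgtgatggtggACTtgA

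Gm18325, with no parent found, held 3.57, 4.57 and 5.59 FPKM in input (lowest, median and highest) and 0, 0.161 and 0.906 FPKM in IP, with no overlap and a log2 change of -2.11 ± 0.23 (SE), again a description since it passed the filter through input alone. Gm9517, identical at 99.7% to Ankrd12, an ankyrin repeat protein, held 43.5, 33.0 and 35.7 FPKM in control-diet input and 49.6, 29.8, 35.8 and 27.9 FPKM in high-fat input. IP held 15.9, 5.14 and 10.3 FPKM on control diet and 25.9, 4.56, 5.44 and 5.15 FPKM on high-fat diet, below every input library. Its change of -1.94 ± 0.34 (adjusted p = 0.000262, limma) was like the -1.95 of Ankrd12. Gm11407 and Gm4076, the copies in the set whose closest gene, mt-Nd5, is encoded in mitochondrial DNA, had log2 changes of -1.80 and -1.02. That of mt-Nd5 was -2.35. The change of Gm11407 is a description since it passed the filter through input alone. Gm7908 (Hacd2), Gm13803 and Gm2810 (both Cir1) were lower at -1.55, -1.51 and -1.02.

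Within each diet the picture was close to that over both. On control diet 194 were higher and 15 lower (15.7% and 10.8% of all genes), with a median of 0.94 against 0.01 for all genes. On high-fat diet 210 were higher and 14 lower (19% and 14.6% of all genes), with a median of 0.86 against -0.02. The libraries of the diets are separate, but both comparisons come from 1 fit with a shared spread. The genes were chosen by their mean over all 14 libraries, so the comparisons are not independent. Of ribosomal copies 115 were higher and 0 lower on control diet, and 106 higher and 1 lower on high-fat diet. Gm14303 led on control diet at 4.87 (not called with library weights, adjusted p = 0.0601, limma) and Gm19810 on high-fat diet at 5.25, and Gm17875 was the lowest in both at -2.58 and -2.64. The 15 lower on control diet became 7 without input index 1 and 8 without input index 0 or 2 of that diet. The 14 lower on high-fat diet became 23 without IP index 0 on control diet. Over all genes, the 1351 lower on control diet became 712 without input index 1, and 787 and 827 without input index 0 and 2. The 1819 of all genes lower on high-fat diet became 2360 without IP index 0 on control diet.

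No pseudogene passed the test between diets. In IP 0 of 464 were called (0% of all genes by limma), and 10 had an unadjusted p under 0.05 against 5.71% of all genes. In input 0 were called (0%), and 41 had an unadjusted p under 0.05 against 5.72%. The difference of the diet effects between fractions gave 0 (0.00801% of all genes, a single gene), with 24 under an unadjusted 0.05 against 6.76%. Single libraries moved these unadjusted counts. The 10 in IP became 5 without IP index 1 on high-fat diet, 17 without IP index 0 on high-fat diet and 24 without IP index 1 on control diet. The 41 in input became 62 without input index 0 on high-fat diet. The 24 of the difference became 13 and 15 without input index 0 or 1 on control diet, and 39, 46 and 37 without IP index 0 on high-fat diet or IP index 1 or 2 on control diet. Over all genes, the 713 in IP became 592, 690 and 1303 in the same order. The 714 in input became 809. The 844 of the difference became 536 and 561, and 1073, 1951 and 1292. The median log2 change of high-fat over control diet was -0.03 in IP and 0.01 in input, beside -0.02 and -0.01 for all genes. The groups did not overlap in 17 pseudogenes higher (3.21% of all genes) and 10 lower (3.13%) in IP, and in 16 higher (3.05%) and 10 lower (3.76%) in input. The histogram of diet differences shows both distributions around 0.

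**Figure D5:**
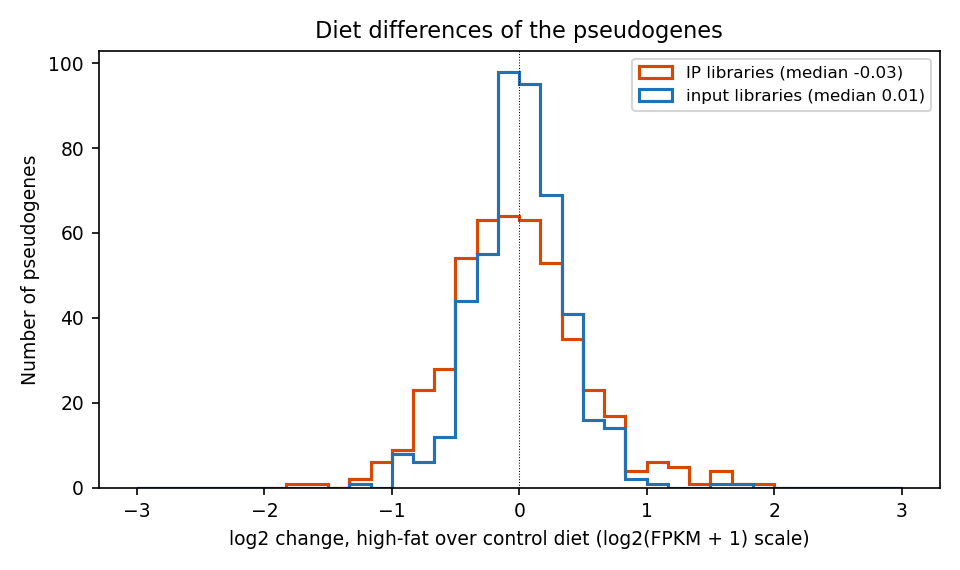
Number of pseudogenes (y axis) by log2 change of high-fat over control diet (x axis) in IP (orange) and input (blue), fitted within each fraction. Both medians lie near 0, at -0.03 and 0.01, and no pseudogene passed an adjusted p of 0.05.

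The values with the smallest p are given without a call. Gm10297, a copy of the G kinase anchoring protein gene Gkap1, held 2.40, 2.77 and 0 FPKM in control-diet IP and 16.1, 8.89, 6.03 and 4.91 FPKM in high-fat IP. It was above on high-fat diet in all 4 libraries, with a log2 difference of 1.97 ± 0.66 that did not pass (adjusted p = 0.813, limma), and Gkap1 was at 0.10. Trmt112-ps2, from the gene of a methyltransferase activator, held 0.532, 3.12 and 3.34 FPKM in control-diet IP and 8.34, 7.49, 8.67 and 8.21 FPKM in high-fat IP, again without overlap and without a call. Its log2 difference was 1.60 ± 0.57. Rnf170-ps had 1.61, and Rps3a2, Gm13408 (both from Rps3a1) and Gm10705 (Ube2l3) had -1.51, -1.32 and -1.03, each at an adjusted p of 0.813 by limma.

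In input, Gm6419, a copy of the mitochondrial ribosomal protein gene Mrpl42, held 5.76, 5.45 and 4.19 FPKM on control diet and 9.17, 7.47, 10.3 and 10.7 FPKM on high-fat diet. The groups did not overlap, and the log2 difference of 0.76 ± 0.15 did not pass (adjusted p = 0.844, limma). Rpl21-ps11 held 7.61, 5.80 and 4.60 FPKM on control diet and 2.44, 3.47, 2.25 and 2.80 FPKM on high-fat diet, also without overlap, with a difference of -0.89 ± 0.18 that did not pass (adjusted p = 0.844, limma), while Rpl21 was at -0.06. Rps13-ps2 and Gm30970 had 0.73 and 0.62, and Gm13880 and Gm5776 had -0.88 and -1.23. For the difference between fractions the smallest p in each direction belonged to 2.49 in Gm10257 (H3f3a) and to -1.40 in Gm10145 (Ube2l3), at an adjusted p of 0.55 each by limma. The authors' deposited table gives 1 p-value per row, for the IP to input ratios on high-fat against control diet. Of the 464, 13 (2.80%) were under 0.05 beside 2.88% of all rows.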

How the data were processed

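The deposited values are FPKM per gene and library, called normalized by the authors, and a p-value per row deposited by the authors. How libraries were scaled is not given in the sources used here. Per the submitters' processing notes, the tools were Cuffdiff, Cufflinks 2.2.1, HISAT2 2.1.0 and StringTie 1.3.4d, and the build GRCm38.p6. The table numbers its columns from 0 to 3 within a group, unlike the labels' replicates, so they were assigned to groups only, and 7 other columns of per-sample values were not used.

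Rows with a mean of at least 1 FPKM (12478, 6 rows of a repeated symbol left out) were fitted as log2(FPKM + 1) with limma 3.58.1 (R 4.3.3, empirical Bayes with a trend), two-sided, adjusted by Benjamini-Hochberg over all of them (threshold 0.05). IP was compared with input, and diet effects between fractions, in 1 fit of 4 groups. Diet was compared within each fraction. This scale understates changes of low genes. The fit was tested on simulated data. Parents were matched with BLAST+ 2.17.0 (blastn, e-value up to 1e-10, at least 50% of the pseudogene) to GENCODE M21, which held all 464.

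The pseudogenes, families and lists were chosen with earlier results of these data known. The rule named the 10 highest, up to 10 per direction with the largest change among called pseudogenes without overlap, 3 per direction with the smallest p where fewer passed, up to 4 per family and those nearest the threshold. The values of 2 pseudogenes are not reported here. Alternatives were other pseudocounts, filters, scalings, library weights, a block by index, and each library left out.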

Additional observations from a re-analysis of the deposited data

Results flagged for a closer look

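In 4 groups of 4 libraries the lowest or highest library stood far from the other 3 (gap over range above Dixon's critical value of 0.829), among the pseudogenes whose single libraries were examined. Chance alone gives such a gap in about 1 of 20 groups. Gm12338 was at 1038.26 FPKM in IP index 2 on high-fat diet, below the other 3. Gm9517 was at 25.8869 FPKM in IP index 0 on high-fat diet, above the other 3 and below all input libraries. In input index 3 on high-fat diet, Gm13525 was at 2.53533 FPKM, below the other 3, and AC151284.2 at 26.9682 FPKM, above the other 3. The cause of these values was not tested.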

How the results depend on the processing

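Of 2941 values of named pseudogenes under the alternatives, 2887 kept their direction and their side of the threshold, 45 lost and 9 gained the call, and 0 reversed. A pseudocount of 0.1 in place of 1 gave median changes of 1.30 over both diets, 1.32 on control diet and 1.23 on high-fat diet, a lower pseudocount giving low genes larger log2 changes by construction. Quantile normalization gave medians of 1.07 on control diet and 0.99 on high-fat diet. It left 1739 genes of the whole table higher and 2212 lower on control diet, against 1963 and 1351. The count of pseudogenes lower on control diet was 7 with library weights, 9 in a fit of that diet alone and 7 to 21 without 1 library. On high-fat diet it was 27 without the IP libraries of index 0 and 11 to 23 without 1 library. Over all genes, those lower on control diet were 1170 with library weights and 711 in the fit of that diet alone, against 1351. On high-fat diet, 2643 of all genes were lower without the IP libraries of index 0, against 1819. In these cases the cause was not tested. Without 1 library, those higher were 243 to 259 over both diets, 156 to 209 on control diet and 183 to 230 on high-fat diet, those lower over both diets were 20 to 30, and medians were 0.85 to 0.94, 0.91 to 0.99 and 0.83 to 0.92. In the diet comparison of input 0 to 1 were higher and in the difference between fractions 0 to 2, the 2 without IP index 1 on control diet, where 60 of 12478 genes were higher and 68 lower. With the index as a replicate block, 245 were higher and 26 lower over both diets, 177 and 13 on control diet, 197 and 13 on high-fat diet, and 0 in the difference. Over all genes the block gave 2817 and 2353 over both diets, 1790 and 1065 on control diet, and 2215 and 1555 on high-fat diet. The labels give IP and input the same replicate numbers within each diet, but the column index is not that number, so it pairs nothing by the labels. IP and input libraries of the same index had correlations of up to 0.06 between their deviations from the group means. For every IP library except index 1 on control diet, the input of the same index had the highest correlation among inputs of that diet. The main fit used no pairing, and whether the libraries are paired was not tested. Pseudogenes over no exon of another gene had 240 higher and 28 lower of 434. Those listed at 0 in no library, an alternative chosen after seeing the data, had 198 and 20 of 349. Parents from sequence alone left the families' sizes as they were. Read depth is unknown, so no counting limits can be given.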
